A study of Homo sapiens with 6 samples.

Results

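The genes of cholesterol and fatty acid synthesis were examined in MDA-MB-231 cells, a human breast cancer cell line, after knockdown of TAZ. They were chosen by gene symbol as 32 genes of the 46427 in the deposited gene table. They comprise 18 genes of sterol synthesis, 9 genes of fatty acid synthesis and desaturation, and 5 genes that regulate these pathways or move sterols between membranes (SREBF1, SREBF2, SCAP, INSIG1 and STARD4). All 32 were measured well above the filter on low counts and were among the 16966 genes tested. RNA was sequenced from 3 cell preparations treated with control-siRNA and 3 treated with TAZ-siRNA, a Dharmacon siGENOME reagent against WWTR1, the gene that encodes the transcriptional coactivator TAZ. All 6 libraries came from the same wild-type line, grown in DMEM with 5.5 mM glucose and 10% heat-inactivated fetal bovine serum, and transfected with DharmaFECT 4. The line is a single tumour-derived line, 1 siRNA reagent was used, and the sequence of the control-siRNA and the time between transfection and RNA harvest for sequencing are not given in the sources used here. The p-values therefore measure the spread between preparations of this line only.

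Cells make cholesterol from acetyl-CoA through mevalonate, isoprenoid units and squalene, and a chain of sterol-modifying enzymes completes the molecule. Fatty acid synthesis draws on the same acetyl-CoA, which is carboxylated, assembled into palmitate, elongated and desaturated. Both pathways are governed by the sterol regulatory element-binding proteins, transcription factors held in the endoplasmic reticulum by SCAP and INSIG proteins while sterols are plentiful and released by proteolysis in the Golgi when sterols fall. SREBF2 is best known for sterol genes and SREBF1 for fatty acid genes, and INSIG1 is itself an SREBP target that acts as a feedback brake. Serum lipoproteins supply cholesterol to cultured cells and lower the demand for synthesis.

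Total counts were 49662504 to 66769103 per control-siRNA library and 48307548 to 71749634 per TAZ-siRNA library. A count of 3, taken as the limit of detection, corresponded to 0.0418 to 0.0621 CPM, here from each library's total count without normalization. Such limits cover counting error only. All other CPM values are counts divided by each library's normalized total. WWTR1 in TAZ-siRNA libraries stood at 8.64% of its control level, from 9228 to 12828 counts per control library to 840 to 1263 counts after knockdown. Vimentin (VIM) and CD44, which mark this mesenchymal-like line, were abundant in every library, at 3611 to 3923 and 241 to 274 TPM (a scale that corrects for transcript length). The estrogen receptor gene ESR1 had at most 6 counts and the progesterone receptor gene PGR at most 2. Of 5 markers of other cell types, PTPRC (leukocytes) and ADIPOQ (adipocytes) had 0 counts in every library, ALB (hepatocytes) had at most 3, and PECAM1 (endothelium) and PLIN1 (adipocytes) reached at most 2.67 and 1.07 TPM. The epithelial markers EPCAM and CDH1 reached at most 2.25 and 0.252 TPM, whereas the labels describe the line as an epithelial cell. AXL and CAV1, also typical of this line, were abundant too, and both fell with TAZ-siRNA, by 0.35 and 0.60 on the log2 scale (adjusted p = 0.0023 and 9.5e-05).

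TAZ knockdown was accompanied by higher RNA of part of both pathways. Of the 32 genes, 11 were higher with TAZ-siRNA and 0 were lower at an adjusted p under 0.05 by edgeR's quasi-likelihood test (Benjamini-Hochberg adjustment over all genes tested). These 11 make up 34.4% of the genes, while 11.9% of all genes tested were called higher and 10.2% lower, 22.1% in all. The called genes were 7 of sterol synthesis (HMGCS1, MVK, IDI1, SQLE, CYP51A1, MSMO1 and SC5D), 3 of fatty acid synthesis (SCD, ELOVL6 and ACSS2) and the regulator INSIG1. The log2 fold change was positive for 29 of the 32 genes (90.6%), compared with 49.2% of all genes tested. Its median was 0.14 and its range -0.17 to 0.87, against a median of -0.0054 over all genes tested. The changes were small: 1 gene, HMGCS1, moved by 1.5-fold or more, compared with 9.31% of all genes tested, and 0 moved by 2-fold or more with an unadjusted p under 0.05, as 1.94% of all genes tested did. In 14 genes the TAZ-siRNA libraries all lay above the control-siRNA libraries and in 2 genes (FDPS and ELOVL5) all lay below, compared with 20.0% and 19.6% of all genes tested, 39.6% in all. In bulk RNA, a change in the number of expressing cells and a change in RNA per cell cannot be told apart.

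**Figure D1:**
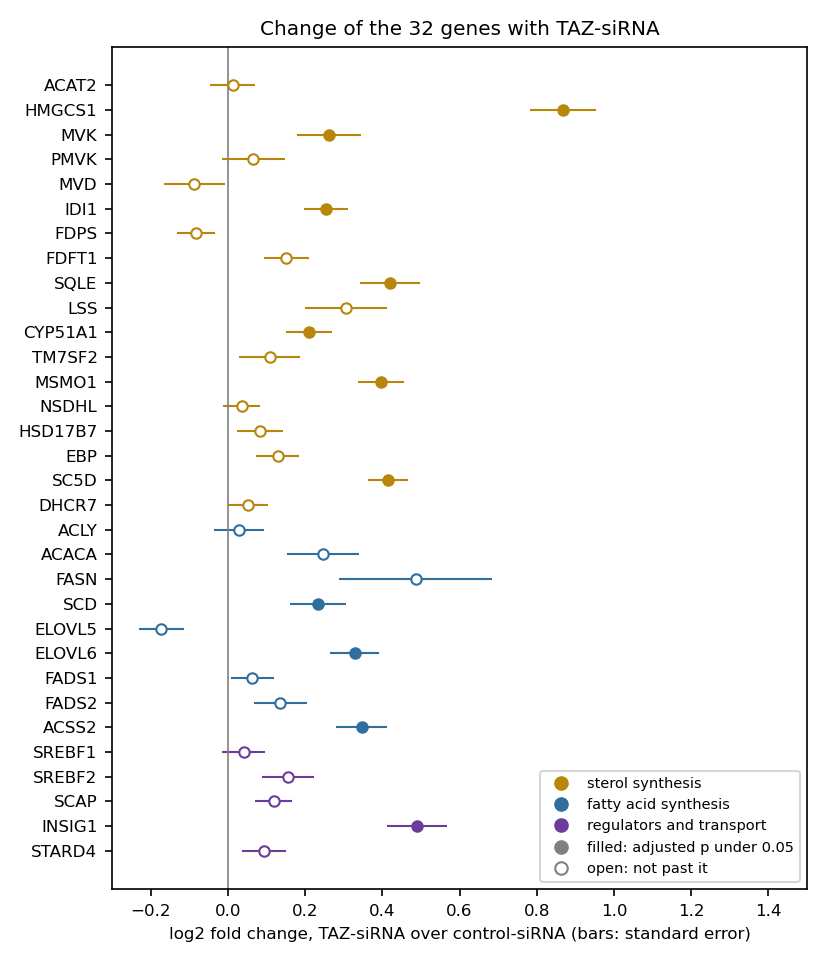
Log2 fold change of each of the 32 genes (x axis, TAZ-siRNA over control-siRNA, edgeR estimate, bars for the standard error, 3 libraries per group), ordered down the y axis by pathway position and coloured by branch. Filled points mark the 11 genes with an adjusted p under 0.05, all to the right of 0, with HMGCS1 farthest out at 0.87.

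The count of called genes depended on single libraries. Without TAZ-siRNA replicate 3 it was 19, of which 18 were higher and 1 (ELOVL5) lower, while 17.6% of all genes tested were then called higher. Without control-siRNA replicate 2, control-siRNA replicate 3 or TAZ-siRNA replicate 1 it was 7, while 6.39%, 6.75% and 6.68% of all genes tested were called higher. HMGCS1, SQLE, MSMO1, SC5D, ELOVL6, ACSS2 and INSIG1 passed the threshold whichever of the 6 libraries was left out. With fewer libraries the fit also has fewer degrees of freedom.

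The windows around the transcription starts of several of these genes are shown because the sterol genes are known targets of SREBPs acting with the factor NF-Y, whose recognition letters are CCAAT. RefSeq start windows (GRCh38.p14, 250 bases before to 50 bases after a start) matched 28 of the 32 genes by symbol. The 4 genes without one were ACAT2, FDFT1, SQLE and FASN. The sequences below run 5′ to 3′ on the strand of the gene. Capitals mark CCAAT or its reverse complement ATTGG and, in SREBF2, the sterol regulatory element letters TCACNCCAC, searched on both strands. HMGCS1 (chr5:43313363-43313662, minus strand), INSIG1 (chr7:155297628-155297927, plus strand), MSMO1 (chr4:165327419-165327718, plus strand) and SC5D (chr11:121292521-121292820, plus strand) are shown as genes with large changes among the called ones. HMGCS1 and SC5D have 2 windows each. Where a gene has more than 1 window, the printed one was picked for having the most CCAAT or ATTGG matches. SREBF2 (chr22:41832855-41833154, plus strand) is shown as the only one of the 28 with the sterol element letters, and FDPS (chr1:155308616-155308915, plus strand) as a sterol gene that was not called. Sterol elements that depart from these exact letters were not searched, so a window without them may still hold one.
HMGCS1: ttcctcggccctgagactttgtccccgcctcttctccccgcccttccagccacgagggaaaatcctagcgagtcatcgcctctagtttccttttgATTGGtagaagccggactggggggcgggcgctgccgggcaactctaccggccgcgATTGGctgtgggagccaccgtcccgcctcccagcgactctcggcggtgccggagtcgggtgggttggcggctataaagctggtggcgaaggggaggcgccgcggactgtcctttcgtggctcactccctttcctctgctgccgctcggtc
INSIG1: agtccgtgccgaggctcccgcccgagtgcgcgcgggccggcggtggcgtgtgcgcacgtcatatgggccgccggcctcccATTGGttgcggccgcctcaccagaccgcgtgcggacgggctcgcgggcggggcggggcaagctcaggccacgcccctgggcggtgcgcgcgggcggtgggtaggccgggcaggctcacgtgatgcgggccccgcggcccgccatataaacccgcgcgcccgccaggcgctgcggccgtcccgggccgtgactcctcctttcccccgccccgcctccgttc
MSMO1: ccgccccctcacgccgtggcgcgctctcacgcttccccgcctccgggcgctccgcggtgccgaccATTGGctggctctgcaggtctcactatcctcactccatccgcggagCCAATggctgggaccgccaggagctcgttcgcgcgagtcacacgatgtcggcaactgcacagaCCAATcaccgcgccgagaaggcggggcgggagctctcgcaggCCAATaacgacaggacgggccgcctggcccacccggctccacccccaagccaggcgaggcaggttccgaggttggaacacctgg
SC5D: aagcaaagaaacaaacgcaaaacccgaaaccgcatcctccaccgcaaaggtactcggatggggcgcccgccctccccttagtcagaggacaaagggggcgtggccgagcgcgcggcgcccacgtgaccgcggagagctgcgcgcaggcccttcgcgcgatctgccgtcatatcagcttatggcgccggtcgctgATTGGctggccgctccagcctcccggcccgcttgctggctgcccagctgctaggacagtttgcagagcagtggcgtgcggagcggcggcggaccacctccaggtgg
SREBF2: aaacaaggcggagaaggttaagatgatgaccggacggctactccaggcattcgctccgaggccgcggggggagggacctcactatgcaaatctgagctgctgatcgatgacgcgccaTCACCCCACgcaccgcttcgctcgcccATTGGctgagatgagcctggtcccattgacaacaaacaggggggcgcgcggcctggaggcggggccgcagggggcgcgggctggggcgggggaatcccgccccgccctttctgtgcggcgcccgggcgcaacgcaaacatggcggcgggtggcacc
FDPS: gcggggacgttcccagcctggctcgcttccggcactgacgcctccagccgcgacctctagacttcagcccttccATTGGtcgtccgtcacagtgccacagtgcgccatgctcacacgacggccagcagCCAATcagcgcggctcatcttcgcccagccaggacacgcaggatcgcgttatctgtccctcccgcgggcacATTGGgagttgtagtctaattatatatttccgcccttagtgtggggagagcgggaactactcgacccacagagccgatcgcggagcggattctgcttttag

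CCAAT or ATTGG occurred in any window of 22 of the 28 genes (78.6%), compared with 42.7% of the 11995 tested genes that have a window. Counted the same way, it occurred in 39.7% of all 27305 genes with a window. Of the 35116 single windows, 34.6% held a match. It was present in 8 of the 10 called genes with a window and in 14 of the 18 others, so its presence in the window did not separate the called genes from the rest. MSMO1 held 4 matches, FDPS 3 and HMGCS1 2. The letters TCACNCCAC occurred in 1 of 28 genes (3.57%) and in 1.41% of tested genes. The E-box CACGTG, which is its own reverse complement, occurred in 5 of 28 genes (17.9%: LSS, SC5D, ELOVL5, SCAP and INSIG1) and in 12.1% of tested genes. GGAATG or CATTCC, core letters bound by the TEAD factors that partner TAZ, occurred in 5 of 28 genes (17.9%: PMVK, HSD17B7, EBP, FADS2 and STARD4) and in 15.3% of tested genes, and in 0 of the 10 called genes. The 4 motifs were counted independently, overlapping matches included, and a match describes letters in this window only.

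In the first steps of sterol synthesis, from acetyl-CoA to farnesyl diphosphate, 3 of 7 genes were called higher (42.9%, beside 11.9% of all genes tested). The median log2 fold change of these 7 genes was 0.07. HMGCS1 (gene ID 3157, chr5:43287470-43313477 on GRCh38), which encodes the cytosolic synthase that makes HMG-CoA, changed most of all 32 genes. Its level with control-siRNA was 277, 261 and 255 CPM in the order of the replicates, and with TAZ-siRNA it was 516, 518 and 414 CPM. Every TAZ-siRNA library lay far above every control-siRNA library, and TAZ-siRNA replicate 3 was the lowest of its group. The mean was 264 ± 11.2 CPM with control-siRNA and 483 ± 59.3 CPM with TAZ-siRNA (SD, n = 3), an increase of 82.5% (log2 fold change 0.87, SE 0.085, edgeR adjusted p = 1.7e-04). The printed HMGCS1 window is 1 of 2 start windows of this gene.

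MVK (gene ID 4598, chr12:109573461-109598125), mevalonate kinase, gave 30.1, 28.5 and 28.2 CPM with control-siRNA and 33.7, 39.5 and 31.0 CPM with TAZ-siRNA. The groups did not overlap, but TAZ-siRNA replicate 3 stood close to the control libraries (log2 fold change 0.26, SE 0.083, edgeR adjusted p = 0.045). The call was lost when any library other than TAZ-siRNA replicate 3 was left out, with adjusted p between 0.088 and 0.147. The span of MVK overlaps that of MMAB, which had 103% of MVK's count, and whether reads were counted by strand is not stated, so its value is uncertain. IDI1 (gene ID 3422, chr10:1039152-1056704), which interconverts the isoprenoid building blocks, gave 237, 221 and 222 CPM with control-siRNA and 283, 271 and 256 CPM with TAZ-siRNA. These groups were separate, with a mean increase of 19.2% (log2 fold change 0.25, SE 0.057, edgeR adjusted p = 0.010). The IDI1 call was lost without control-siRNA replicate 2, control-siRNA replicate 3 or TAZ-siRNA replicate 1 (adjusted p = 0.070, 0.054 and 0.055).

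The other 4 genes of these steps did not pass the test. FDPS, farnesyl diphosphate synthase, was at 266, 251 and 261 CPM with control-siRNA and at 240, 249.5 and 245 CPM with TAZ-siRNA (log2 fold change -0.08, SE 0.050, adjusted p = 0.268). All 3 of its TAZ-siRNA values lay below the lowest control value, by a narrow margin. MVD, mevalonate diphosphate decarboxylase, showed a log2 difference of -0.09 (adjusted p = 0.471), which became -0.19 with an adjusted p of 0.046 without TAZ-siRNA replicate 2. ACAT2, the cytosolic thiolase at the entry of the pathway, and PMVK, phosphomevalonate kinase, had log2 fold changes of 0.01 and 0.07 (adjusted p = 0.905 and 0.610). The span of ACAT2 overlaps those of TCP1 and SOD2.

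From squalene synthase to cholesterol, 4 of 11 genes were called higher (36.4%, beside 11.9% of all genes tested). All 11 had a positive log2 fold change, as 49.2% of all genes tested did, and the median was 0.15. SQLE (gene ID 6713, chr8:124998505-125022283), squalene epoxidase and a slow step of the pathway, was at 45.9, 46.3 and 43.5 CPM with control-siRNA and at 61.0, 67.1 and 53.5 CPM with TAZ-siRNA. The groups were separate, and the mean rose from 45.2 ± 1.55 to 60.6 ± 6.80 CPM (log2 fold change 0.42, SE 0.077, edgeR adjusted p = 0.0039). CYP51A1 (gene ID 1595, chr7:92112149-92134745), lanosterol demethylase, was at 352, 339 and 324 CPM with control-siRNA and at 411, 393 and 370 CPM with TAZ-siRNA. It rose by 15.7% (log2 fold change 0.21, SE 0.060, edgeR adjusted p = 0.031), and the call was lost on leaving out any library other than TAZ-siRNA replicate 3, with adjusted p between 0.059 and 0.130. Its span overlaps that of AKAP9, which had 17.3% of its count, as that of IDI1 overlaps WDR37, with 7.33%.

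MSMO1 (gene ID 6307, chr4:165327666-165343164), a sterol methyl oxidase whose start window is printed above, was at 192, 198 and 187 CPM with control-siRNA and at 266, 259 and 234 CPM with TAZ-siRNA. The lowest TAZ-siRNA value exceeded the highest control value, and the mean rose by 31.6% (log2 fold change 0.40, SE 0.059, edgeR adjusted p = 0.0013). SC5D (gene ID 6309, chr11:121292771-121313410), which introduces a late double bond of the sterol ring, was at 45.4, 44.2 and 42.6 CPM with control-siRNA and at 60.2, 59.2 and 56.8 CPM with TAZ-siRNA. The change had the smallest SE of the called sterol genes, 44.0 ± 1.40 to 58.7 ± 1.71 CPM (log2 fold change 0.42, SE 0.052, edgeR adjusted p = 5.4e-04).

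The other 7 genes from squalene synthase onwards were not called. LSS, the cyclase that forms lanosterol, was at 136, 133 and 117 CPM with control-siRNA and at 160, 184 and 135 CPM with TAZ-siRNA (log2 fold change 0.31, SE 0.106, adjusted p = 0.071, and 0.010 with DESeq2). Its groups overlapped through TAZ-siRNA replicate 3, and without that library the log2 fold change was 0.42 (adjusted p = 0.0044). Without TAZ-siRNA replicate 2 it was 0.20 (adjusted p = 0.155), and after the GC and length correction 0.22 (adjusted p = 0.093). FDFT1, squalene synthase, and EBP, a sterol isomerase, had TAZ-siRNA libraries all above the control ones, with log2 fold changes of 0.15 and 0.13 (adjusted p = 0.084 and 0.131). FDFT1 passed the threshold with DESeq2 (adjusted p = 0.039), and EBP did after the GC and length correction (log2 fold change 0.21, adjusted p = 0.027). TM7SF2, NSDHL, HSD17B7 and DHCR7, which reduce, decarboxylate or otherwise finish the sterol nucleus and ring, had log2 fold changes of 0.04 to 0.11 with overlapping groups (adjusted p between 0.352 and 0.651). The span of TM7SF2 overlaps that of VPS51, which had more counts. A pseudogene, HSD17B7P2, had 25.3% of the count of HSD17B7, and reads may be divided between the 2.

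**Figure D2:**
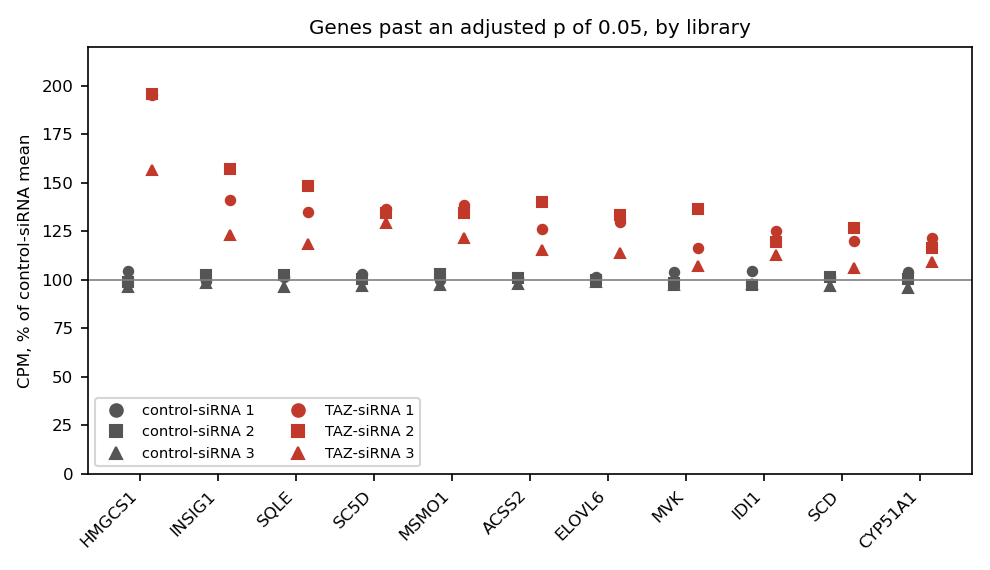
CPM of the 11 genes called higher in each of the 6 libraries (points, 3 control-siRNA and 3 TAZ-siRNA), as a percentage of the control-siRNA mean of each gene (y axis, from 0). The TAZ-siRNA points all lie above the control-siRNA points of the same gene, and on the log2 scale TAZ-siRNA replicate 3 averages 0.25 above the control mean against 0.42 and 0.47 for replicates 1 and 2.

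Of the 9 genes of fatty acid synthesis, 3 were called higher (33.3%, beside 11.9% of all genes tested) and 0 lower (beside 10.2% of all genes tested). Their log2 fold changes had a median of 0.23. The called genes were an acetyl-CoA source, an elongase and the main desaturase, while the genes of citrate cleavage, carboxylation and palmitate assembly did not pass the test. ACSS2 (gene ID 55902, chr20:34874942-34927966), which activates acetate to acetyl-CoA, was at 96.7, 96.6 and 93.8 CPM with control-siRNA and at 121, 134 and 110 CPM with TAZ-siRNA. It rose by 27.2%, with the groups separate (log2 fold change 0.35, SE 0.066, edgeR adjusted p = 0.0048). ELOVL6 (gene ID 79071, chr4:110045846-110199199), which extends palmitate to stearate, was at 51.9, 51.1 and 50.7 CPM with control-siRNA and at 66.5, 68.3 and 58.2 CPM with TAZ-siRNA. Its control values were nearly equal and the mean rose by 25.6% (log2 fold change 0.33, SE 0.064, edgeR adjusted p = 0.0052).

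SCD (gene ID 6319, chr10:100347233-100364826), stearoyl-CoA desaturase, was the most abundant of the 32 genes and gave 1231, 1233 and 1176 CPM with control-siRNA and 1459, 1535 and 1284 CPM with TAZ-siRNA. The groups did not overlap and the increase was 17.5% (log2 fold change 0.23, SE 0.073, edgeR adjusted p = 0.043). This call was lost on leaving out any library other than TAZ-siRNA replicate 3 (adjusted p between 0.109 and 0.152), and after a correction for base composition (GC content) and length, where the log2 fold change was 0.14 (adjusted p = 0.061).

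FASN, the multifunctional synthase that makes palmitate, varied most among the libraries, at 458, 425 and 340 CPM with control-siRNA and at 593, 695 and 426 CPM with TAZ-siRNA. TAZ-siRNA replicate 3 fell within the control range, and the log2 fold change of 0.49 had an SE of 0.198 (edgeR adjusted p = 0.137). Without TAZ-siRNA replicate 3 it was 0.66 (adjusted p = 0.039), and without TAZ-siRNA replicate 2 it was 0.33 (adjusted p = 0.251). After the GC and length correction it was 0.33 (adjusted p = 0.139). ACACA, the carboxylase that makes malonyl-CoA, was at 148, 144 and 128 CPM with control-siRNA and at 174, 184 and 142 CPM with TAZ-siRNA (log2 fold change 0.25, adjusted p = 0.086, and 0.030 with DESeq2). It likewise overlapped the control range through TAZ-siRNA replicate 3, and its log2 difference was 0.35 without it (adjusted p = 3.6e-04). Without TAZ-siRNA replicate 2 the ACACA difference was 0.17 (adjusted p = 0.231), and after the GC and length correction it was 0.12 (adjusted p = 0.0997). ELOVL5, which elongates polyunsaturated fatty acids, was the one gene of this branch with a negative log2 fold change, at 166, 166 and 158 CPM with control-siRNA and at 150.1, 132 and 152 CPM with TAZ-siRNA. All TAZ-siRNA values lay below the control values (log2 fold change -0.17, SE 0.059, adjusted p = 0.060), and the call was made without TAZ-siRNA replicate 3 (-0.20, adjusted p = 0.0068), by DESeq2 (adjusted p = 0.045) and after the GC and length correction (adjusted p = 0.027). ACLY, which cleaves citrate to acetyl-CoA, and the desaturases FADS1 and FADS2 had log2 fold changes of 0.03, 0.06 and 0.14 (adjusted p = 0.787, 0.454 and 0.181), and the first 2 turned negative, at -0.07 and -0.02, after the GC and length correction. The spans of FADS1 and FADS2 overlap each other.

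The genes of the regulatory proteins moved less than INSIG1. INSIG1 (gene ID 3638, chr7:155297772-155310235), which retains the SCAP-SREBP complex in the endoplasmic reticulum, was at 125, 129 and 124 CPM with control-siRNA and at 178, 198 and 155 CPM with TAZ-siRNA. The groups were far apart, and the mean rose from 126 ± 2.83 to 177 ± 21.5 CPM, an increase of 40.4% (log2 fold change 0.49, SE 0.077, edgeR adjusted p = 0.0018). SREBF2 (gene ID 6721, chr22:41833105-41907308), whose start window is printed above with the sterol element, was at 249, 243 and 249 CPM with control-siRNA and at 278, 299 and 248 CPM with TAZ-siRNA. Replicates 1 and 2 with TAZ-siRNA were above the controls and replicate 3 was within them (log2 fold change 0.16, SE 0.067, edgeR adjusted p = 0.125). Without TAZ-siRNA replicate 3 the SREBF2 log2 fold change was 0.23 (adjusted p = 0.0019), and without TAZ-siRNA replicate 2 it was 0.095 (adjusted p = 0.345). After the GC and length correction it was 0.074 (adjusted p = 0.276).

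SREBF1 (gene ID 6720, chr17:17811334-17837017) gave 69.9, 71.6 and 69.1 CPM with control-siRNA and 73.2, 76.5 and 67.1 CPM with TAZ-siRNA. The groups overlapped (log2 fold change 0.04, SE 0.056, edgeR adjusted p = 0.647), and the sign turned to -0.04 after the GC and length correction. The span of SREBF1 overlaps that of RAI1. SCAP (gene ID 22937, chr3:47413681-47477126), the sterol-sensing escort of SREBPs, was at 69.0, 71.2 and 72.3 CPM with control-siRNA and at 76.8, 79.5 and 74.4 CPM with TAZ-siRNA. The groups did not overlap, but the difference missed the threshold (log2 fold change 0.12, SE 0.048, edgeR adjusted p = 0.104) unless TAZ-siRNA replicate 3 was left out (adjusted p = 0.024). After the GC and length correction the SCAP log2 fold change was 0.054 (adjusted p = 0.303). STARD4, a soluble carrier of cholesterol between membranes, showed a log2 difference of 0.09 (adjusted p = 0.274) with overlapping groups.

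The transcripts of SREBF1 were examined because this gene is transcribed from alternative starts whose products differ at their amino end. The table lists 9 SREBF1 transcripts with counts, of which 6 begin at the upstream start of the gene and 3 at starts farther downstream. The upstream start held 67.4, 72.9 and 79.4% of the gene's transcript counts with control-siRNA and 59.8, 31.0 and 33.3% with TAZ-siRNA. The share was lower in every TAZ-siRNA library, 73.2 ± 5.99% against 41.4 ± 16.0% (exact permutation test, two-sided, p = 0.1, the smallest that 3 against 3 libraries allow). Transcript variant 3, which begins at the downstream position 17823630, had 13.8, 11.7 and 11.7% with control-siRNA and 18.9, 46.0 and 54.1% with TAZ-siRNA (exact permutation test, p = 0.1). TAZ-siRNA replicate 1 was close to the control libraries and replicates 2 and 3 were far from them, so the size of this difference, 27.2 percentage points on average, ranged from 20.0 to 37.6 with 1 library left out. Estimates of single transcripts were unsteady in these libraries, for example the share of the leading MVD transcript ran from 9.07 to 80.7% across the 6 libraries.

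**Figure D3:**
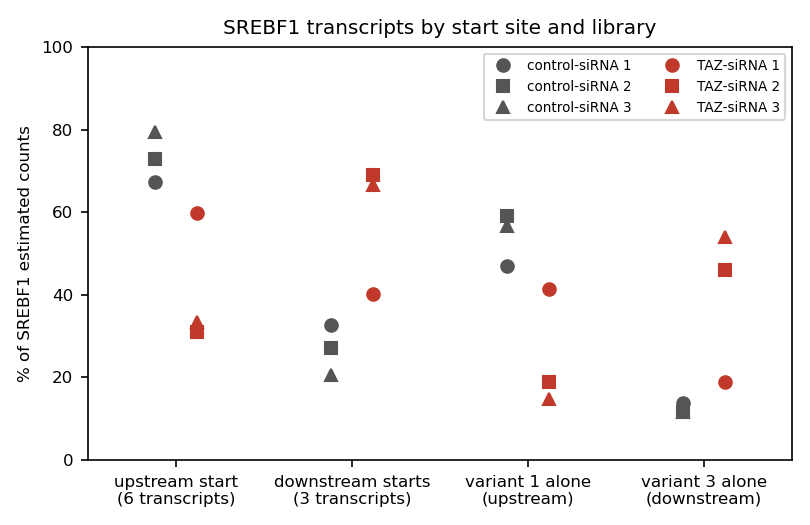
Shares of the SREBF1 transcript counts (y axis, percent) in each of the 6 libraries, for transcripts from the upstream start, from the downstream starts, and for variants 1 and 3 alone. The upstream share runs from 67.4 to 79.4% with control-siRNA and from 31.0 to 59.8% with TAZ-siRNA.

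Within each group, the sterol and fatty acid branches ranked the libraries alike, with TAZ-siRNA replicate 2 above replicates 1 and 3. The mean log2 level of the 18 sterol genes, relative to the control mean, was 0.034, 0.0012 and -0.036 with control-siRNA and 0.21, 0.28 and 0.11 with TAZ-siRNA. For the 9 fatty acid genes it was 0.048, 0.013 and -0.062 with control-siRNA and 0.22, 0.29 and 0.039 with TAZ-siRNA. The sterol means did not overlap between groups, whereas the fatty acid mean of TAZ-siRNA replicate 3 fell below that of control-siRNA replicate 1. In TAZ-siRNA replicate 3, 12 of 18 sterol genes and 5 of 9 fatty acid genes lay above their control mean, compared with 17 of 18 and 8 of 9 in TAZ-siRNA replicate 2. The 32 genes together held 0.673, 0.656 and 0.619% of all counts with control-siRNA and 0.792, 0.832 and 0.684% with TAZ-siRNA. No test of a difference between the branches was made, since genes are not replicates. The GC and length correction turned the order of their medians: the median log2 fold change went from 0.14 to 0.21 for sterol genes, from 0.23 to 0.12 for fatty acid genes and from 0.12 to 0.054 for regulators.

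**Figure D4:**
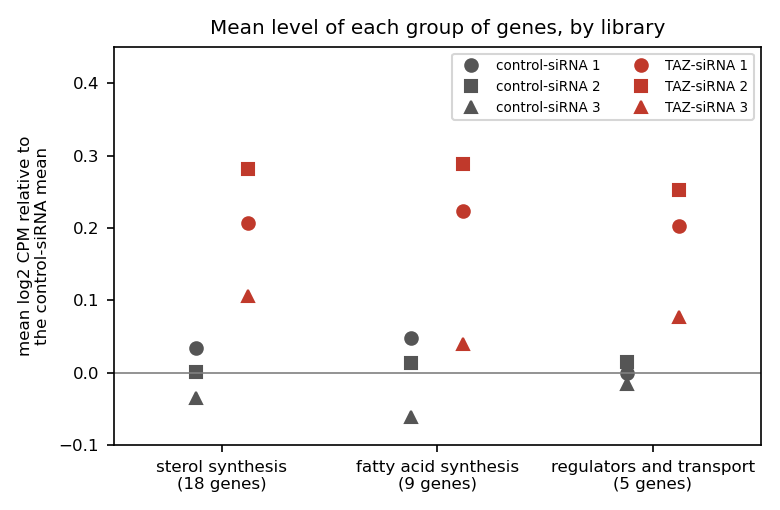
Mean log2 CPM of the sterol, fatty acid and regulator genes in each of the 6 libraries, relative to the control-siRNA mean of each gene (y axis). The TAZ-siRNA libraries lie above the control-siRNA libraries for sterol genes and regulators, and replicate 3 is the lowest of the TAZ-siRNA libraries in each group of genes.

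On the scale that corrects for length, the 32 genes spanned from 503 TPM for SCD to 13.9 TPM for SC5D in the control-siRNA libraries. FDPS followed at 444 TPM, then FDFT1 at 330 and FADS2 at 313 TPM, whose libraries overlapped. ACLY, ACAT2 and CYP51A1 came next, at 263, 241 and 236 TPM, and each overlapped its neighbour. MSMO1 and FADS1 (188 and 177 TPM) and IDI1 and DHCR7 (164 and 155 TPM) likewise formed overlapping pairs above ELOVL5 at 129 TPM. HMGCS1, FASN and SREBF2 lay together at 109, 105 and 103 TPM with control-siRNA. With TAZ-siRNA, HMGCS1 reached 207 ± 34.0 TPM, close to IDI1 at 206 TPM. STARD4 and INSIG1 followed at 96.1 and 93.0 TPM, then ACSS2 at 71.8 TPM. NSDHL, LSS, MVD and EBP (61.9 to 54.2 TPM) overlapped in turn, above HSD17B7 at 50.2 and SCAP at 36.8 TPM. SREBF1, SQLE, TM7SF2 and ACACA (33.6 to 31.2 TPM) were not separated from one another, and MVK, PMVK and ELOVL6 filled the lower end at 23.4, 18.9 and 17.1 TPM. SREBF2 RNA was thus about as abundant as that of FASN, and above SREBF1 in each library.

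**Figure D5:**
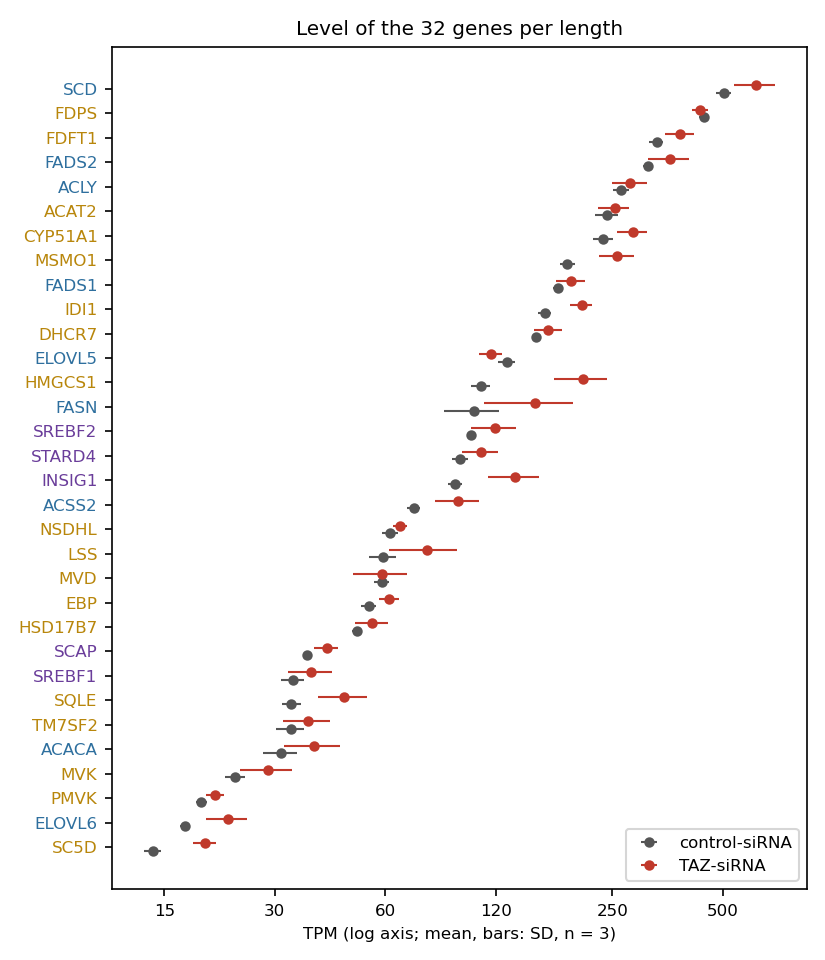
TPM of the 32 genes (x axis, log scale), ordered by their control-siRNA mean, for control-siRNA and TAZ-siRNA (points for means, bars for SD, n = 3). SCD is highest at 503 TPM and SC5D lowest at 13.9 TPM with control-siRNA, and HMGCS1 shows the widest separation between the groups.

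Further genes of the same pathways, grouped by role, were called in both directions. Of 60 such genes, 56 passed the filter on low counts (IDI2, THRSP, ELOVL2 and ELOVL4 did not), and 8 were higher and 7 lower, while their log2 fold changes had a median of 0.0023. Their share called higher, 14.3%, lies near the 11.9% of all genes tested. Among genes of sterol and isoprenoid metabolism outside the main chain, 0 of 11 were higher and 2 were lower: DHDDS, which makes dolichol (-0.24, adjusted p = 0.026), and ACAT1, the mitochondrial thiolase (-0.23, adjusted p = 0.030). Of the 13 further regulators, 4 were higher (30.8%, beside 11.9% of all genes tested) and 1 lower (beside 10.2% of all genes tested). MBTPS1, the protease that makes the first cut in SREBPs, rose from 134 to 156 CPM on average (log2 fold change 0.22, adjusted p = 0.0070). SPRING1, which aids that protease, was called at a log2 fold change of 0.21 (adjusted p = 0.024), and at 0.07 (adjusted p = 0.302) after the GC and length correction. NR1H3, the sterol-activated receptor LXR alpha, fell by 0.26 on the log2 scale (adjusted p = 0.023), and PPARG rose slightly (0.16, adjusted p = 0.031).

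Of the 23 further fatty acid genes tested, 4 were higher (17.4%) and 3 lower. Of all genes tested, 11.9% were called higher and 10.2% lower. SCD5, a second stearoyl-CoA desaturase, rose from 24.2 to 33.4 CPM (log2 fold change 0.46, edgeR adjusted p = 4.0e-04), in the same direction as SCD. ACSL1, which activates fatty acids, rose as well (0.31, adjusted p = 0.0069). FADS3, a relative of FADS1 and FADS2, fell from 29.4 to 19.0 CPM (-0.63, adjusted p = 0.0051), and MECR, of mitochondrial fatty acid synthesis, fell from 13.4 to 9.78 CPM (-0.46, adjusted p = 0.0019). Of the 9 genes of lipid uptake and intracellular sterol transport tested, 0 were higher and 1 was lower (NPC1, which exports cholesterol from lysosomes, named after its value was seen; -0.17, adjusted p = 0.032). The count of 15 called further genes fell to between 5 and 7 on leaving out any library other than TAZ-siRNA replicate 3, and was 21 without that one, while 11.2 to 15.3% and 33.7% of all genes tested were called in those fits.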

How the data were processed

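RNA of 3 control-siRNA and 3 TAZ-siRNA preparations of MDA-MB-231 cells was sequenced from TruSeq Stranded mRNA libraries. The authors trimmed the reads, aligned them to GRCh38 with HISAT2 and quantified them with StringTie. The versions are not given in the sources used here, nor is whether counting used strand. The submitters' processing notes also name Bowtie 0.12.2 and the build mm8, with no role given. The estimated counts deposited per gene and transcript are whole numbers and were used unrounded. The TPM and FPKM values deposited had been adjusted by the authors for the length of transcripts and the size of libraries.

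Counts were compared with edgeR 4.0.16 (R 4.3.3; TMM factors 0.978 to 1.02, the filterByExpr filter set to 10 counts, robust quasi-likelihood fit), with Benjamini-Hochberg adjustment over 16966 genes and a threshold of 0.05. The biological coefficient of variation was 8.04%. The scripts were tested on simulated data. Library groups and replicate numbers came from the sample descriptions, and no columns lacked a sample. The sample titles give the same libraries other replicate numbers, in the same order in both groups. Replicates of a group differed by more than sampling noise (chi-square per degree of freedom 5.43 to 30.0), so none was counted as a repeat.

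The genes and lists were chosen with earlier results of these data known. Library values are given for genes at an adjusted p under 0.05 and for SREBF1, SREBF2, SCAP and INSIG1, and the 10 further genes with the smallest adjusted p are named. A gene not called is given with library values where its groups nearly separated or 1 library decided its call, chosen after its values were seen. Alternatives were DESeq2 1.42.0, limma 3.58.1 on log2 FPKM with a pseudocount of 1 or 0.1, upper-quartile factors, other filters, a replicate block, a spline (5 degrees of freedom) on GC content and length, other thresholds, and leaving out each library. GC content and length were known for all 32 genes and 89.7% of genes tested.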

Additional observations from a re-analysis of the deposited data

How the results depend on the processing

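The number of the 32 genes called was 11, and 7 to 19 with 1 library left out (sterol genes 7, with 4 to 9; fatty acid genes 3, with 2 to 7; regulators 1, with 1 to 3; further pathway genes 15, with 5 to 21). At an adjusted p under 0.01 the counts were 7 of the 32 genes, 4 sterol genes and 5 further genes. The share of all genes tested at that threshold was not computed, so these counts cannot be set against it. A fold of 2 with an unadjusted p under 0.05 left 0 in each group. DESeq2 called 15 of the 32 genes (14 higher, 1 lower), 5 of them fatty acid genes (4 higher, 1 lower), and 23.8% of all genes tested. With limma, 8 of the 32 genes were called at a pseudocount of 1 and 9 at 0.1, all higher, of which 2 were fatty acid genes each time. Calls with limma among the further genes were 7 and 8, and 16.0% and 16.2% of all genes tested were called. The GC and length correction called 12 of the 32 genes (11 higher, 1 lower), and 26.7% of all genes tested. All 11 called genes also passed with DESeq2, and 8 of them passed in every alternative fit that kept all libraries, the exceptions being MVK, CYP51A1 and SCD.

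The labels do not say that a replicate number marks a shared preparation. Deviations of same-numbered libraries correlated at -0.017, 0.0086 and 0.070 over all genes, and not every library correlated best with its own number, so the numbers were not taken as pairs. Over the 32 genes alone the correlations were 0.33, 0.29 and 0.67. With a replicate block, 16 of the 32 genes were called, 15 higher and 1 lower, while 30.2% of all genes tested were called. Of these, 9 were sterol and 6 fatty acid genes. The block added FASN (log2 fold change 0.47, adjusted p = 0.0023), LSS (0.0024), ACACA (0.0027), FDFT1 (0.034) and, lower, ELOVL5 (0.025). The replicate block with the GC and length correction called 19 of the 32 genes (18 higher, 1 lower), 12 sterol and 6 fatty acid genes, and 30.3% of all genes tested (13.6% higher, 16.8% lower).

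The median log2 fold change of the fatty acid genes was 0.23, 0.12 with the GC and length correction and 0.12 with that correction and the replicate block. Signs turned for ACLY, FADS1 and SREBF1 with the GC and length correction, alone (-0.067, -0.016 and -0.043) and with the replicate block (-0.067, -0.016 and -0.043). With 1 library left out, ACLY ran from -0.015 (no TAZ-siRNA replicate 2) to 0.087 and ACAT2 from -0.030 to 0.055, negative when control-siRNA replicate 3 (-0.025) or TAZ-siRNA replicate 2 (-0.030) was left out. None of these was called in any of these fits, and the cause was not tested. With 3 libraries a group, single-gene permutation tests cannot go below 0.1, and differences smaller than the spread between libraries were not detectable.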
